A study of Mus musculus with 30 samples.

Results

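The amygdala of mice that were immobilized before fear conditioning (Immo+FC) was compared with the amygdala of mice that were only conditioned (FC). The members of this comparison are 10 RNA-seq libraries of the 30 in the series, 4 from Immo+FC and 6 from FC, taken by the treatment and tissue in their labels. Of 23303 gene entries, the test held the 13490 whose FPKM averaged 0.5 or more in these 10 libraries. FPKM counts sequenced fragments relative to transcript length and to the mapped fragments of a library. The 6 amygdala libraries of home cage mice (HC), which were neither immobilized nor conditioned, took no part in the test. Their levels are given for a part of the genes named. Their placement between the groups is given for the genes past the threshold as a set. All mice were male C57BL/6J of 2 to 3 months. FC mice received tones paired with foot shock and were killed 2 h after this training, and Immo+FC mice went through the same training a week after a 2 h immobilization. Each library holds bilateral 1 mm punches, centred on the basolateral nucleus, of a pool of 2 mice. A group with immobilization and no conditioning was not part of the design, so the comparison measures conditioning with against conditioning without an earlier stress, and further Immo+FC pools were not analysed here. The p-values measure the spread between pools.

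Immobilization is an uncontrollable stressor that activates the hypothalamic-pituitary-adrenal axis and raises circulating glucocorticoids. The amygdala holds glutamatergic projection neurons of the basolateral complex and mostly GABAergic neurons of the central nucleus, and it links a tone with a shock during auditory fear conditioning. Neuronal activity induces immediate early genes within minutes to hours, whereas glucocorticoids act through the glucocorticoid and mineralocorticoid receptors on genes that carry their response elements. Earlier severe stress is known to strengthen later fear learning in rodents. In these mice, however, the study found no significant difference in freezing between Immo+FC and FC, before the tones or across the conditioning session.

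The libraries held 24944474 to 31366290 sequences in FC, 23148078 to 28008242 in Immo+FC and 24165634 to 27491655 in HC, and the Pearson correlation between any pair of the 10 compared was 0.969 to 0.990. Markers of basolateral and cortical glutamatergic neurons summed to 1272 to 1420 FPKM in FC and 1087 to 1367 in Immo+FC, and markers of the central amygdala to 581 to 706 and 552 to 704, with every marker of both lists tested. Markers of neighbouring tissue also varied between pools. Choroid plexus markers, among them the thyroxine carrier Ttr, summed to 33.5, 34.5, 131, 674, 1094 and 450.8 FPKM in FC 1 to 6, to 1101, 905, 766 and 162 in Immo+FC 1 to 4, and from 32.6 to 1255 in HC. Markers of striatal neurons summed to 234 to 713.5 FPKM in FC, 320.3 to 726 in Immo+FC and 227 to 664 in HC. Library Immo+FC 1 stood apart from the other 3 of its group in genes with long transcripts, and counts without it are given with the results below. In a bulk punch, fewer cells of a type and less RNA per cell cannot be told apart.

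At an adjusted p under 0.05 in limma, 67 genes differed between Immo+FC and FC, which is 0.497% of the genes tested. Of these, 61 were higher in Immo+FC (0.452%) and 6 were lower (0.0445%). The higher genes include 2 subunits of the NMDA receptor, 3 potassium channel genes and the nuclear RNA Malat1, and apart from an entry listed at 0 in FC their log2 fold changes were 0.31 to 3.59 with a median of 1.29 in 60 genes. The lower genes had log2 fold changes of -0.25 to -1.27. Of the 61 higher genes 8 had a mean under 0.5 FPKM in FC and entered the test only through their level in Immo+FC, among them Zbed6, Erbb4 and Kcnh7. In each of the 67 genes no Immo+FC library overlapped with an FC library. These genes were picked by p on the same 10 libraries, so this adds no support. Over all genes 118 (0.875%) had every Immo+FC library above every FC library and 187 (1.39%) had every one below. At an unadjusted p under 0.05, 530 genes were higher (3.93%) and 746 lower (5.53%), and this split turned to 674 higher and 448 lower with median-ratio scaling. The counts of gene lists at an unadjusted p under 0.05, given below, are to be read against these shares. The median log2 fold change of all genes was -0.02, with 5387 of the 13490 positive and 8103 negative. Without Immo+FC 1 the count rose to 363, and in a fit that also held the 6 HC libraries it fell to 3, the Meg3 entry, Park2 and 2310044G17Rik.

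The entry that joins Meg3, Mir1906-1 and Mir770 had the smallest p. Meg3 is a maternally expressed long noncoding RNA of the imprinted Dlk1-Dio3 region, and both microRNAs lie within its locus. The entry was listed at 0 FPKM in all 6 FC libraries, at 420, 529, 650 and 530 in Immo+FC 1 to 4, and from 508 to 622 with a median of 589 in HC. It is the only tested entry of the table that was at 0 in every FC library and present in the others, and a value of 0 in a table of FPKM can be a failed estimate, so no fold change is given for it.

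Malat1, a nuclear long noncoding RNA, was measured at 38.5 to 42.2 FPKM in FC with a median of 39.9, and at 67.8, 89.4, 102.5 and 90.9 in Immo+FC 1 to 4. All 4 Immo+FC libraries were above all FC libraries. The log2 fold change was 1.11 with an SE of 0.09 and an adjusted p of 0.000133 in limma. In HC the levels were 38.7, 38.7, 98.3, 77.1, 121 and 85.04 FPKM, so that HC 1 and 2 lay at the FC level and HC 3 to 6 near Immo+FC. Of the other nuclear and imprinted noncoding RNAs fixed as a list, 0 of the remaining 5 tested passed. The joined Meg3 entry and the imprinted antisense RNA Peg3os, which both passed, are not among these 5. Miat had 81.7 ± 4.40 FPKM in FC (SD, n = 6) and 72.5 ± 9.68 in Immo+FC (SD, n = 4), and Snhg11 had 437 ± 21.6 and 401 ± 27.6.

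Lnpep encodes a membrane aminopeptidase that cleaves oxytocin and vasopressin and binds angiotensin IV, and it is named by the study. It was at 0.379 to 0.681 FPKM in FC with a median of 0.488, and at 2.297, 4.74, 5.53 and 5.10 in Immo+FC 1 to 4. The groups were far from overlapping, and Immo+FC 1 was the lowest of its group. The log2 fold change was 2.81 with an SE of 0.23 (limma, adjusted p = 0.000133). In HC it was at 0.614, 0.678, 4.69, 5.56, 6.29 and 5.04 FPKM. HC 1 and 2 were again at the FC level and the other HC libraries were at that of Immo+FC.

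The DNA before the start sites of the Meg3, Malat1 and Lnpep genes is shown because these entries have 3 of the 4 smallest p-values and RefSeq windows. Each run is the 250 bases upstream of the start in RefSeq on GRCm38.p6, read 5′ to 3′ on the strand of the gene, for Meg3 chr12:109540746-109540995 on the plus strand, for Malat1 chr19:5802673-5802922 on the minus strand and for Lnpep chr17:17624490-17624739 on the minus strand. Capitals mark the core TGACG of the cAMP response element (CRE) on either strand, which in Meg3 overlap to form the full element TGACGTCA.
Meg3: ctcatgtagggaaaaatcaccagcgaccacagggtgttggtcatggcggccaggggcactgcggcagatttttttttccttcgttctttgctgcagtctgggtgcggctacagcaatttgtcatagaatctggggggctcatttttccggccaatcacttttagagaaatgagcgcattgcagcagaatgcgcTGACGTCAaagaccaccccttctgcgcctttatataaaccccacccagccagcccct
Malat1: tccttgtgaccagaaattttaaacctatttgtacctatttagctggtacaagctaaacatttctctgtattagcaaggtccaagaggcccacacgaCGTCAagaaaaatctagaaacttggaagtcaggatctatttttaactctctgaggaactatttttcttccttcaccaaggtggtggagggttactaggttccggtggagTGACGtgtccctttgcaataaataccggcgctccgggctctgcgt
Lnpep: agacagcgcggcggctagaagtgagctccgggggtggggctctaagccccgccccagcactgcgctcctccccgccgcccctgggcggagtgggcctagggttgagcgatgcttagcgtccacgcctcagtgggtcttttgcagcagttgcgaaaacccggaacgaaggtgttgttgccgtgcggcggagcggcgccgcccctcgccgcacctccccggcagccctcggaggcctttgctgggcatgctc
The Meg3 window held 1 full CRE, the Malat1 window held 2 cores, and the Lnpep window, with a GC content of 70.0%, held 0. Over all 32851 windows of this length the core was in 17.77% and the full element in 1.55%. Of the 61 higher genes 36 had a window, and in 10 of them (27.8%) the core was present, against 19.8% of all genes with a window. Windows were matched for 56 of the 87 genes named here.

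Among glutamate receptors, Grin2b and Grin2a rose and 0 of the 24 members tested fell past the threshold. They encode the GluN2B and GluN2A subunits of the NMDA receptor, the calcium-permeable receptor on which associative plasticity in the amygdala depends. Grin2b ran from 0.606 to 0.776 FPKM in FC (median 0.712) and was at 2.53, 5.71, 7.19 and 5.56 in Immo+FC 1 to 4. The lowest Immo+FC library lay well above the highest FC library, and the log2 fold change was 2.64 with an SE of 0.22 (limma, adjusted p = 0.000154). In HC Grin2b was at 0.592, 0.715, 7.22, 8.76, 8.39 and 6.88 FPKM. In all 16 libraries with the score of long transcripts as a covariate and without Immo+FC 1, the log2 fold change of Grin2b was -0.03 and did not pass. Grin2b, with a transcript of 24060 bases, is itself a member of that score, so the fit cannot tell its change from that of the score. Grin2a ran from 0.370 to 0.654 FPKM in FC (median 0.545) and was at 0.984, 2.23, 2.94 and 2.25 in Immo+FC, a log2 fold change of 1.71 with an SE of 0.25. Both genes thus had the same 2 HC libraries at the FC level. The list median was -0.03, close to that of all genes. Grm5, the metabotropic receptor mGluR5, had 25.1 ± 1.68 FPKM in FC and 28.7 ± 3.20 in Immo+FC, and Gria3, an AMPA receptor subunit, had 65.5 ± 4.72 and 56.6 ± 9.01 (SD, n = 6 and 4), and neither passed.

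Of 36 voltage-gated ion channel genes tested, Kcnma1, Kcnq3 and Kcnh7 rose and 0 fell, and the list median was 0.00. Kcnh7 reached the minimum level for testing only through Immo+FC and had to differ, so it adds nothing to this count. Kcnma1 is the pore subunit of the BK channel, which opens on calcium and depolarization. It ran from 4.89 to 6.15 FPKM in FC (median 5.73) and was at 9.29, 13.7, 14.8 and 16.1 in Immo+FC 1 to 4, with a log2 fold change of 1.22 and an SE of 0.13 (limma, adjusted p = 0.00125). In HC the values were 5.67, 5.68, 14.99, 17.4, 16.95 and 17.3 FPKM. Kcnq3, a subunit of the M-current channel that limits repetitive firing, had a log2 fold change of 1.72 and rose from a median of 2.755 FPKM in FC to 5.63, 11.6, 13.1 and 11.7 in Immo+FC. Kcnh7, an ERG-type channel, was low throughout, at 0.206 to 0.438 FPKM in FC and 0.611, 1.36, 1.27 and 1.40 in Immo+FC. Its log2 fold change turned to -0.09 in the fit of 16 libraries without Immo+FC 1 and with the long transcript score, of which Kcnh7 is a member. At an unadjusted p under 0.05, 8 channel genes were higher and 0 lower, against 3.93% and 5.53% of all genes tested. Of all genes with a transcript of at least 10 kb 43.9% were higher at that p, and of those from 8 to 10 kb 23.5%. The channel genes include the sodium channel Scn3a, with a transcript of 9560 bases (log2 fold change 0.34, adjusted p = 0.168 in limma). The R-type calcium channel Cacna1e, with 14921 bases, is another (0.55, adjusted p = 0.178 in limma). In both, HC 1 and 2 were the only HC libraries nearer to FC. The values of Scn3a and Cacna1e in Immo+FC 1 lay within the FC range, at 4.89 and 16.2 FPKM.

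**Figure D1:**
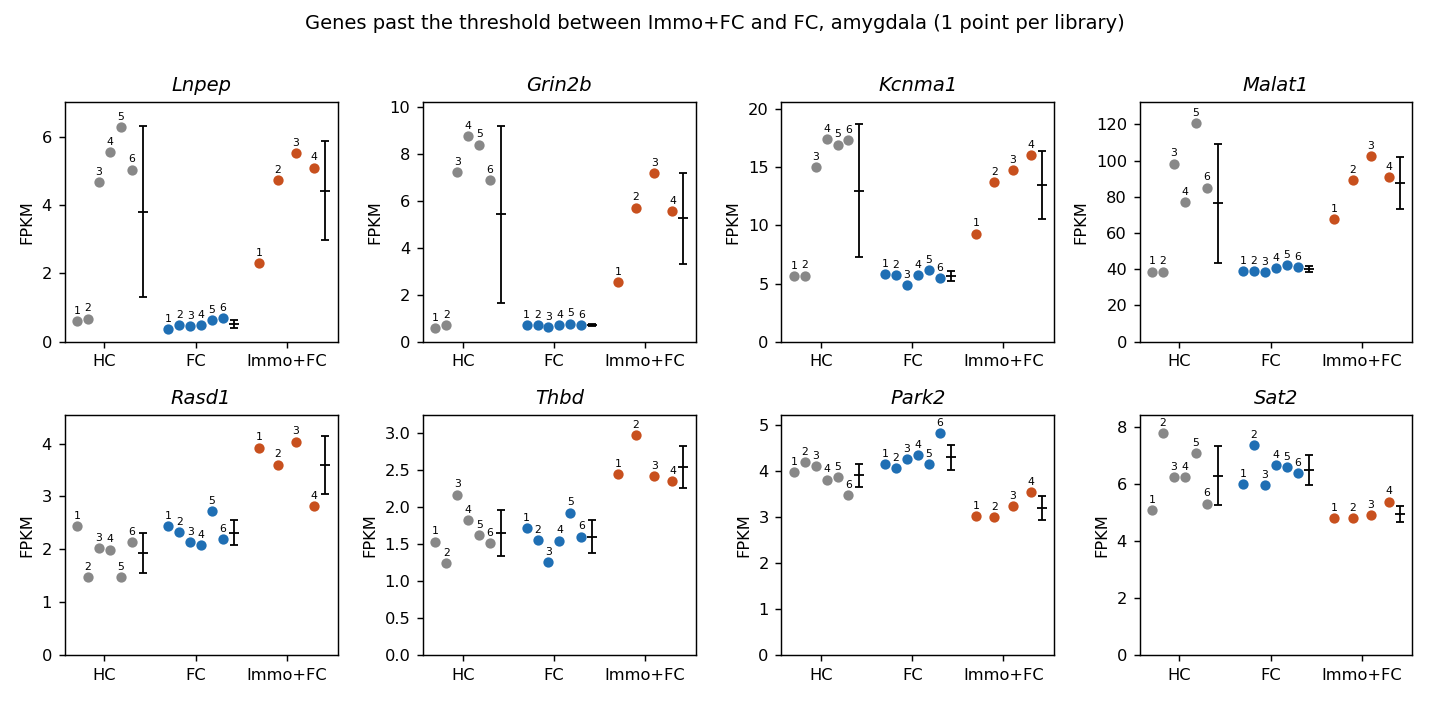
FPKM of 8 genes past the threshold in each amygdala library (1 point each, replicate number above it) of HC, FC and Immo+FC, with the group mean and SD as a bar beside the points. In the upper row HC 1 and 2 sit with FC and HC 3 to 6 near Immo+FC, and in the lower row HC does not divide in this way, with Rasd1 at 1.48 to 2.44 in HC against 2.82 to 4.04 in Immo+FC.

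The other genes with the largest increases belong to several families. Zbed6, a zinc finger repressor that derives from a domesticated transposon and lies within an intron of Zc3h11a, ran from 0.226 to 0.620 FPKM in FC (median 0.402) and was at 3.41, 6.84, 6.995 and 6.55 in Immo+FC 1 to 4, with a log2 fold change of 3.59. Erbb4, the neuregulin receptor of interneurons, ran from 0.326 to 0.555 FPKM in FC and was at 1.28, 3.11, 4.10 and 3.08 in Immo+FC, and it was the only 1 of 19 tested interneuron markers to pass upward. Zbed6 and Erbb4 both had FC means under 0.5 FPKM and were tested only because of their level in Immo+FC. Signalling genes were the E3 ubiquitin ligase Cbl (log2 fold change 2.17) and the tyrosine phosphatases Ptprt (2.00) and Ptpn4 (1.80). Rora, a nuclear receptor of the circadian loop, had a log2 fold change of 1.88, with 0.433 to 0.865 FPKM in FC and 1.21, 3.06, 2.78 and 2.82 in Immo+FC. It was the only 1 of 21 clock genes tested as a list to pass. That count leaves out 2310044G17Rik, a CLOCK-interacting protein described below, which passed with a lower level in Immo+FC. Zfp369 (2.22) and Fam135b (1.81) were also among the 12 highest, and their Immo+FC libraries were all above FC.

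A few further genes that rose were chosen after their values were seen. The paralogs Cntnap5a, Cntnap5b and Cntnap5c, of the contactin-associated adhesion family, had log2 fold changes of 1.03, 1.20 and 1.49, and reads that fit more than 1 of them make each value less certain. In the fit of 16 libraries with the long transcript score and without Immo+FC 1, Cntnap5a, a member of that score, turned to -0.07. Tnr, the tenascin of perineuronal nets, ran from 2.91 to 5.89 FPKM in FC and was at 8.38, 17.2, 18.2 and 18.2 in Immo+FC. Ube3a, an imprinted ubiquitin ligase, rose by 0.78 on the log2 scale and Itpr1, the IP3 receptor of the endoplasmic reticulum, by 0.75. Among chromatin regulators 1 of 30 passed, the helicase Chd9, at 3.65 to 3.95 FPKM in FC and 4.20, 5.95, 5.66 and 5.82 in Immo+FC. Several of these calls sat close to the threshold and were lost with fewer libraries, at fold changes of similar size. Chd9 and Ube3a did not pass without any 1 FC library or without Immo+FC 2, 3 or 4, with log2 fold changes of 0.44 to 0.50 and of 0.69 to 0.80. Neither did Itpr1 without FC 1, 2, 3 or 5 or without any of these 3 Immo+FC libraries, and Cntnap5a without FC 1, 2, 3, 4 or 6 or without the same 3. The calls of Cntnap5b, Cntnap5c, Kcnh7 and Zfp369 were lost without Immo+FC 2, 3 or 4 at adjusted p-values of 0.0506 to 0.0743 in limma, and that of Grin2a without Immo+FC 2 (0.0552). The methyltransferase genes Kmt2c (0.48) and Ash1l (0.34) had Immo+FC 1 within the FC range and did not pass.

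Many of the higher genes have long transcripts, of at least 8 kb in 42 of the 60 with a value, whereas 7 were under 4 kb, Rasd1, Zfp369 and Thbd among them. The longest transcript in GENCODE vM21 had a median of 10243.5 bases in the higher genes, against 3433 bases in all tested genes, and the last exon had a median of 7141.5 against 1723 bases. Their GC content had a median of 43.5% against 49.9%. Among the 326 genes with a transcript of at least 10 kb, 143 (43.9%) were higher at an unadjusted p under 0.05 and 31 passed the threshold, whereas 2.36% of genes under 2 kb were higher. From 8 to 10 kb 23.5% were higher and from 6 to 8 kb 5.65%. Lower genes at the same p were most frequent from 2 to 4 kb, at 6.70%, and fell to 2.15% at 10 kb and over.

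The mean centred log2 level of the genes of 10 kb and over separated the libraries in a way that crossed the groups. It was -0.23, -0.17, -0.32, -0.13, -0.09 and -0.11 in FC 1 to 6, and -0.22, 0.21, 0.24 and 0.21 in Immo+FC 1 to 4. In HC 1 to 6 it was -0.18, -0.13, 0.21, 0.25, 0.26 and 0.21. Immo+FC 1, HC 1 and HC 2 were thus within the FC range, and the other 7 libraries outside FC were high. With this score as a covariate in the fit of the 10 libraries, 759 genes passed, 249 higher and 510 lower, of which 47 were among the 67. In a fit of all 16 amygdala libraries with the score, 3 passed. The score is made of the 326 genes of that length, with 31 of the 67 among them. For these members the fits cannot tell their change from that of the score.

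**Figure D2:**
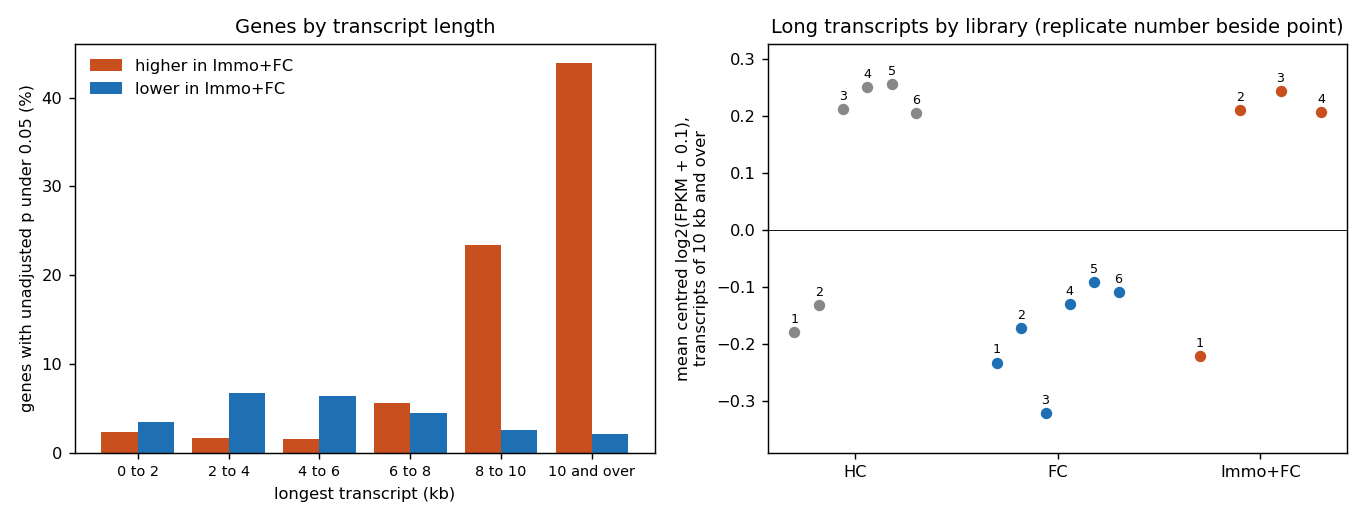
Left, the share of tested genes at an unadjusted p under 0.05 that were higher or lower in Immo+FC, by the length of the longest transcript in kb. Right, the mean centred log2(FPKM + 0.1) of genes with a transcript of at least 10 kb in each library, where all FC libraries, Immo+FC 1, HC 1 and HC 2 lie below 0 and the other 7 lie at 0.21 to 0.26.

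The HC libraries, which the contrast did not use, were set against the means of both groups in each of the 67 genes. HC 1 lay nearer to the FC mean than to the Immo+FC mean in 64 genes and HC 2 in 65. HC 3, 4, 5 and 6 lay nearer to FC in 3, 5, 5 and 3 genes. Over all genes tested the shares were 58.0%, 59.6%, 51.1%, 53.0%, 50.8% and 48.9% for HC 1 to 6. In 58 of the 67 genes HC 1 and 2 were the only HC libraries nearer to FC, which held for 779 of all 13490 genes (5.77%). For these 58 genes FC thus resembled 2 unconditioned pools and Immo+FC the 4 others. The authors sequenced 8 pools per lane, and which pools shared a lane was not given in the sources used here, so lane and group cannot be told apart.

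**Figure D3:**
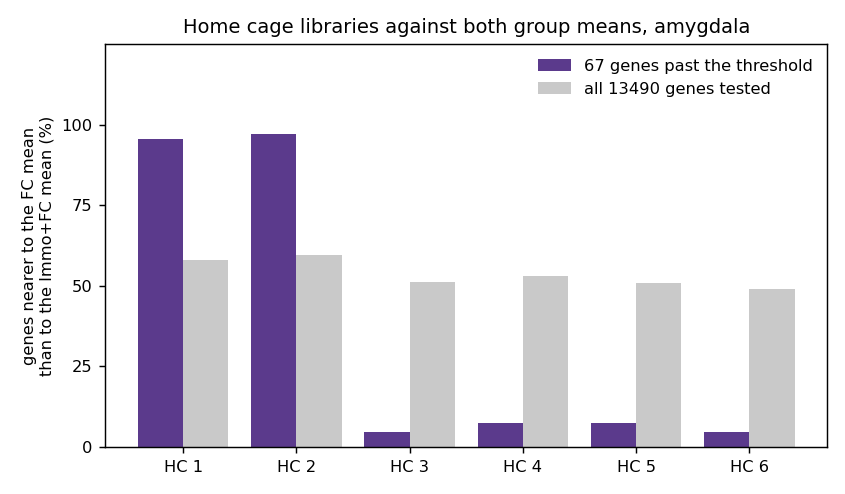
Share of genes in which each home cage library lay nearer to the FC mean than to the Immo+FC mean, for the 67 genes past the threshold and for all 13490 tested genes. HC 1 and 2 lie with FC in 64 and 65 of the 67 genes and HC 3 to 6 in 3 to 5, whereas over all genes each library is between 48.9 and 59.6%.

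The 9 genes outside this pattern were the Meg3 entry, Cxadr, Rasd1, Thbd, Park2, Sat2, 2310044G17Rik, 4930481A15Rik and Peg3os. Rasd1, a small G protein that was discovered through its induction by dexamethasone, is at chr11:59963181-59964944 on GRCm38. It ran from 2.08 to 2.72 FPKM in FC (median 2.26) and was at 3.92, 3.60, 4.04 and 2.82 in Immo+FC 1 to 4. All Immo+FC libraries exceeded FC, and the log2 fold change was 0.61 with an SE of 0.11 (limma, adjusted p = 0.0299). HC was at 1.48 to 2.44 FPKM with a median of 2.01, and all 6 HC libraries lay nearer to FC. The call did not hold without FC 1, 2, 3, 4 or 6, where adjusted p in limma was 0.0679 to 0.0876, nor without Immo+FC 2 (0.142) or 3 (0.139).

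Thbd encodes thrombomodulin, the thrombin receptor of vascular endothelium, is at chr2:148404466-148408188 and is named by the study. It was at 1.25 to 1.92 FPKM in FC (median 1.57), at 2.44, 2.96, 2.41 and 2.34 in Immo+FC 1 to 4, and at 1.24 to 2.16 in HC (median 1.57). Every Immo+FC library was above every FC and HC library. The log2 fold change was 0.64 with an SE of 0.11 (limma, adjusted p = 0.0275), and adjusted p was 0.159 with HC in the fit. The call was lost without FC 1, 2, 4 or 6 and without Immo+FC 2, 3 or 4, at adjusted p-values of 0.0568 to 0.142 in limma. Of the other 26 endothelial and mural markers tested, 0 passed, and the summed level of the list was 405 to 430.1 FPKM in FC and 386 to 437 in Immo+FC.

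Park2, the gene of the ubiquitin ligase parkin at chr17:10840384-12063361, fell. It was at 4.05 to 4.81 FPKM in FC (median 4.20), at 3.01, 2.99, 3.23 and 3.53 in Immo+FC 1 to 4 and at 3.46 to 4.19 in HC (median 3.91). The Immo+FC libraries lay below all of FC, and HC overlapped with both groups. The log2 fold change was -0.42 with an SE of 0.07 (limma, adjusted p = 0.0221), and Park2 still passed with HC in the fit. It did not pass without FC 1, 3 or 4 or without Immo+FC 2 or 3, where adjusted p was 0.0507 to 0.119 in limma. Sat2, which encodes a thialysine acetyltransferase of the spermidine acetyltransferase family, fell from 5.96 to 7.38 FPKM in FC to 4.79, 4.79, 4.90 and 5.38 in Immo+FC, a log2 fold change of -0.38 (limma, adjusted p = 0.0306), with HC at 5.08 to 7.78. Without FC 2, 4, 5 or 6 or without Immo+FC 2 or 3 its adjusted p was 0.0672 to 0.162 in limma.

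The remaining genes that fell include noncoding RNAs and 1 annotated protein-coding gene. Peg3os, antisense to the imprinted Peg3, ran from 23.6 to 32.3 FPKM in FC (median 26.5) and was at 5.75, 10.1, 15.8 and 16.98 in Immo+FC 1 to 4. HC was at 9.86 to 25.2 FPKM, so that HC spanned the gap between the groups. Without any 1 of the FC libraries, or without Immo+FC 2, Peg3os no longer passed (adjusted p of 0.0765 to 0.192 in limma). Without strand in the counting, reads of Peg3os and of Peg3 cannot be told apart. The entry 4930481A15Rik ran from 1.597 to 1.87 FPKM in FC and was at 1.02, 1.20, 1.11 and 1.26 in Immo+FC, and 2610203C20Rik at 13.7 to 15.8 and at 10.04, 10.97, 11.6 and 9.98. The latter turned to 0.13 in the 16-library fit with the long transcript score and without Immo+FC 1. The protein-coding entry 2310044G17Rik, now named Cipc, a CLOCK-interacting protein, was at 22.4 to 23.4 FPKM in FC, 18.6, 20.6, 18.8 and 19.3 in Immo+FC and 20.2 to 21.5 in HC, a log2 fold change of -0.25 that did not pass without FC 1, 3, 4 or 6 or without Immo+FC 3 or 4 (adjusted p of 0.0601 to 0.113 in limma). Cxadr, the adhesion protein that serves as the coxsackievirus and adenovirus receptor, rose from 4.67 to 5.19 FPKM in FC to 6.10, 6.40, 6.29 and 6.66 in Immo+FC, within the HC range of 5.33 to 7.79.

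Glucocorticoid-induced genes were examined because the groups differ by a stressor. Of 23 tested, Rasd1 passed the threshold, and 5 were higher and 0 lower with p under 0.05 before adjustment. A positive log2 fold change was found in 19, against 5387 of all 13490 genes, with a median of 0.08 against -0.02. Dusp1, a phosphatase that switches off MAP kinases, ran from 5.11 to 7.26 FPKM in FC (median 6.00) and was at 8.96, 7.82, 6.88 and 8.73 in Immo+FC, and its HC range of 6.76 to 15.04 held all 4 (log2 fold change 0.39, adjusted p = 0.192 in limma). Sult1a1, a sulfotransferase, was at 2.84 to 3.93 FPKM in FC, 4.33, 3.84, 3.76 and 3.86 in Immo+FC and 2.03 to 3.36 in HC (0.27, adjusted p = 0.372 in limma). Corticosteroid receptors and stress peptides gave 0 calls among 13 tested, and 2 were lower at an unadjusted p under 0.05. These were Crhbp, the binding protein of corticotropin-releasing hormone, at 20.6 ± 2.08 FPKM in FC and 16.95 ± 2.47 in Immo+FC, and the oxytocin receptor Oxtr, at 4.32 ± 0.418 and 3.69 ± 0.445 (SD, n = 6 and 4).

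Immediate early genes mark recent neuronal activity, and here both groups had been conditioned 2 h before death. Of 37 tested, 0 passed the threshold in limma, 5 were higher and 0 lower with p under 0.05 before adjustment, and the median was 0.08. Arc, a postsynaptic protein of plasticity, ran from 9.69 to 18.9 FPKM in FC (median 12.5) and was at 20.8, 18.3, 19.8 and 20.5 in Immo+FC 1 to 4, while HC ran from 7.38 to 35.4 FPKM. Only the highest FC library reached into the Immo+FC range, yet the HC spread exceeded the difference (log2 fold change 0.62, SE 0.15, adjusted p = 0.175 in limma). Dusp5, an ERK phosphatase, ran from 1.42 to 1.87 FPKM in FC and was at 3.16, 2.28, 2.74 and 1.87 in Immo+FC (0.55, adjusted p = 0.178 in limma).

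Genes of protein folding gave 0 calls. Of 27 tested genes for ER chaperones and other unfolded protein response factors, 0 passed in limma, and 3 were higher and 0 lower with p under 0.05 before adjustment. Positive log2 fold changes were found in 23, against 5387 of all 13490 genes, with a median of 0.07. The mean centred log2 level of the list was above all of FC (-0.05 to 0.16) in Immo+FC 1 and 2 (0.21 and 0.20) and within FC in Immo+FC 3 and 4 (both 0.07). Creld2, an ER stress protein, ran from 8.60 to 12.4 FPKM in FC and was at 14.5, 12.9, 13.2 and 11.3 in Immo+FC, with HC at 6.45 to 11.8. Derl3, of the degradation channel of the ER, ran from 0.794 to 1.48 FPKM in FC and was at 1.66, 1.52, 1.38 and 1.35 in Immo+FC. Of 23 heat shock proteins and cochaperones, 0 passed, 2 were higher and 1 lower with p under 0.05 before adjustment, and the median was 0.10. Its level was likewise above FC (-0.08 to 0.18) in Immo+FC 1 and 2 alone, at 0.30 and 0.23. Hspa4l, a nucleotide exchange factor of HSP70 with a transcript of 9479 bases, had the smallest p of the list (log2 fold change 0.35, adjusted p = 0.0687 in limma), and Ahsa2, an HSP90 cochaperone, had a log2 fold change of -0.22. The cold-inducible RNA-binding proteins Cirbp and Rbm3 both had lower means, Cirbp with 34.8 ± 2.74 FPKM in FC, 27.7 ± 3.00 in Immo+FC and 40.2 ± 6.33 in HC, and Rbm3 with 26.8 ± 3.12, 21.6 ± 3.48 and 29.3 ± 4.83 (SD, n = 6, 4 and 6). Every Immo+FC library was below every FC library in Cirbp (adjusted p = 0.148 in limma) but not in Rbm3 (0.338).

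The lists of GABA, monoamine and neuropeptide receptors gave 0 calls in limma. Of 14 GABA receptor genes 3 were higher and 1 lower with p under 0.05 before adjustment, led by Gabrg3 at 0.425 to 1.08 FPKM in FC and 1.15, 1.95, 3.13 and 2.02 in Immo+FC (log2 fold change 1.26, adjusted p = 0.0687 in limma), and Gabrb1 had a value of 0.49. Both have long transcripts, and HC 1 and 2 were the only HC libraries nearer to FC in both. Of 25 monoamine receptor genes 2 were higher and 2 lower at that p. They include the adrenergic receptor Adra1a (0.90, adjusted p = 0.178 in limma) and the serotonin-gated channel Htr3a, which was at 3.799 to 4.81 FPKM in FC and 2.74, 2.91, 3.61 and 3.60 in Immo+FC without overlap (-0.36, adjusted p = 0.204 in limma). Neuropeptide receptors (20 tested) and neuropeptides (22 tested) also had 0 calls.

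Synaptic genes had mostly negative values of small size, as had 8103 of all 13490 genes. Of 27 genes of the presynaptic machinery 0 passed in limma, 2 were higher and 5 lower with p under 0.05 before adjustment, and 23 had negative log2 fold changes, with a median of -0.08 against -0.02 for all genes. Syn2, a synapsin of the vesicle pool, had 246 ± 20.3 FPKM in FC and 213 ± 13.95 in Immo+FC, and Dmxl2, a vesicle-associated regulator of the proton pump that the study names, had 16.97 ± 0.781 and 22.02 ± 3.24 (SD, n = 6 and 4). Of 6 C1q-like and cerebellin genes, secreted organisers of synapses, 3 were lower at an unadjusted p under 0.05. C1ql2 was at 1.46 to 3.35 FPKM in FC (median 1.88), at 1.15, 0.693, 1.07 and 1.17 in Immo+FC and at 1.09 to 3.21 in HC. The FC and Immo+FC groups did not overlap, but with a log2 fold change of -0.92 and an SE of 0.20 the adjusted p was 0.105 in limma. C1ql1 was also without overlap, at 5.93 to 7.01 and 4.53 to 5.92 FPKM (-0.28, adjusted p = 0.235 in limma).

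Of 18 inflammatory and acute phase genes tested, 0 passed in limma, 1 was higher and 0 lower with p under 0.05 before adjustment, and the median was 0.08. The gene at that p was Il1r1, the interleukin-1 receptor, with 0.422 to 0.697 FPKM in FC and 0.896, 1.07, 0.684 and 0.780 in Immo+FC. Of 15 interferon response genes 3 were higher and 0 lower at that p, and 0 passed. Irf9, the DNA-binding subunit of the ISGF3 complex, was at 3.14 to 3.74 FPKM in FC, at 3.92, 4.08, 3.94 and 4.60 in Immo+FC and at 2.43 to 3.36 in HC, without overlap of Immo+FC with either group (log2 fold change 0.28, adjusted p = 0.204 in limma). Bst2, a tetherin of enveloped viruses, had a log2 fold change of 0.48 with 2.81 ± 0.509 FPKM in FC and 3.95 ± 0.524 in Immo+FC (SD, n = 6 and 4).

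Housekeeping lists gave no calls in limma. The 72 ribosomal protein genes had log2 fold changes of -0.06 to 0.11 with a median of 0.04, and 0 of them were past an unadjusted p of 0.05 in either direction. The 36 proteasome genes had a median of -0.03 and the 82 oxidative phosphorylation genes a median of 0.00, with 0 and 1 genes past that p. Log2 fold changes were positive in 60 of the 72 ribosomal protein genes, against 5387 of all 13490 genes. They were negative in 32 of the 36 proteasome genes and in 39 of the 82 oxidative phosphorylation genes, against 8103 of all. A lean of most members to the same side was thus not particular to glucocorticoid-induced or protein folding genes.

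**Figure D4:**
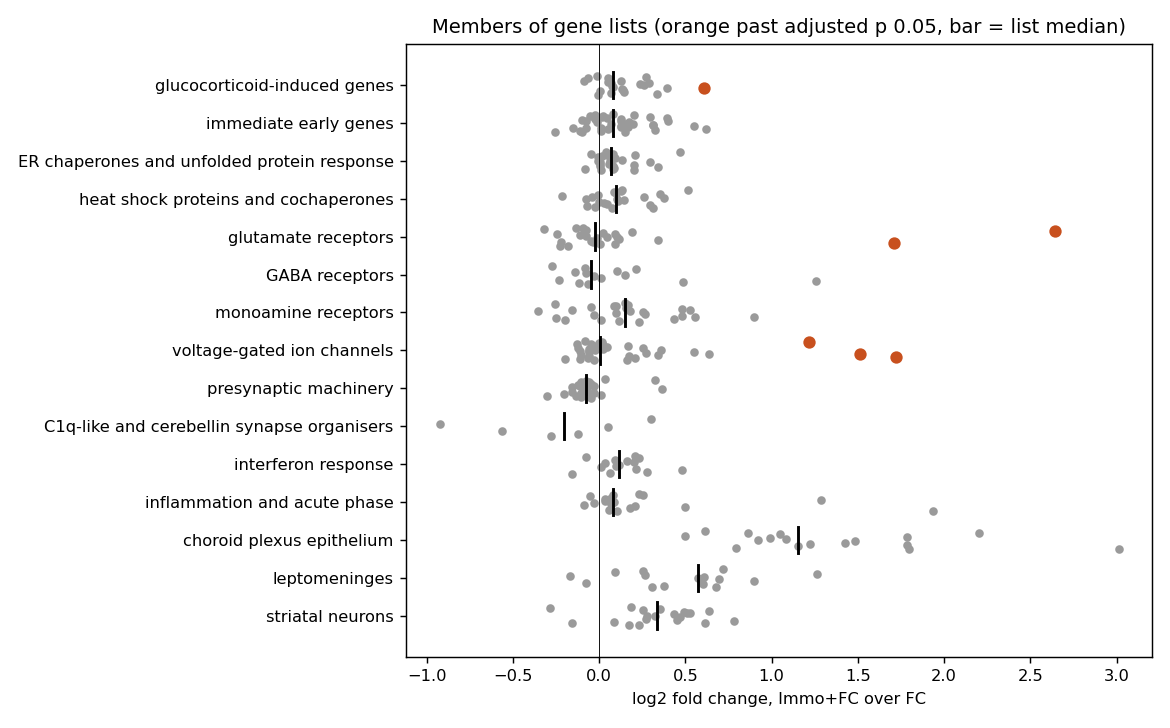
Log2 fold change of Immo+FC over FC for each tested member of 15 gene lists (1 point per gene, orange past an adjusted p of 0.05, vertical bar the list median). Points past the threshold are Rasd1, Grin2a, Grin2b, Kcnma1, Kcnq3 and Kcnh7, and all 17 choroid plexus markers lie above 0 with a median of 1.16.

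Markers of tissue beside the amygdala varied within both groups, with FC 4 to 6 high and Immo+FC 4 low in choroid plexus markers. All 17 tested choroid plexus markers had positive log2 fold changes with a median of 1.16, yet 0 passed in limma and 1 was higher at an unadjusted p under 0.05, Prlr, the prolactin receptor, at 0.160 to 1.68 FPKM in FC and 1.08, 1.90, 1.79 and 0.765 in Immo+FC. Sostdc1, a secreted inhibitor of BMP and Wnt signals, had the next smallest p among them, with a log2 fold change of 0.50. Ttr ran from 1.46 to 881 FPKM within FC and was at 941, 726, 614 and 109 in Immo+FC 1 to 4. Of 15 leptomeningeal genes 0 passed and 3 were higher at that unadjusted p, and the median was 0.57, among them the GABA transporter Slc6a13 (0.57) and the proteoglycan Ogn (0.90). With the choroid plexus and leptomeningeal scores as covariates 22 genes passed, all of them among the 67.

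Striatal markers also had higher means in Immo+FC, with 18 of 20 positive against 5387 of all 13490 genes, a median of 0.34 and 0 past either p. Rxrg, a retinoid receptor and 1 of the 2 negative members, had 14.5 ± 2.50 FPKM in FC and 12.2 ± 3.97 in Immo+FC (SD, n = 6 and 4). The 7 hypothalamic markers tested were all negative with a median of -0.49, and 0 passed. Astrocytes (18 tested), microglia (20) and the oligodendrocyte lineage (21) had medians of -0.03, -0.04 and -0.06 and 0 calls each, and the 5 blood cell markers tested were all positive, with a median of 0.17, 0 calls in limma and 1 of them, S100a9, with an unadjusted p below 0.05.

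The study names 33 genes for the amygdala in its account of stress before conditioning, and all 33 were tested. They were chosen on these samples and are no independent evidence of direction. Lnpep, Thbd and Dnajb14 passed, 15 were higher and 7 lower with p under 0.05 before adjustment, and 24 had a higher mean in Immo+FC. Dnajb14, an ER membrane cochaperone with a transcript of 9477 bases, ran from 1.82 to 3.49 FPKM in FC (median 2.76) and was at 5.38, 8.57, 9.09 and 8.93 in Immo+FC, a log2 fold change of 1.51 with an SE of 0.19 (limma, adjusted p = 0.00283). In HC it was at 3.71, 4.53, 8.79, 9.68, 9.20 and 8.93 FPKM, again divided between HC 2 and HC 3.

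The receptors among these genes did not separate the groups in this test. The study, by contrast, reported Drd2, Htr2a, Grm2 and Trhr, and also Igf2 and Clock, as different at a false discovery rate under 0.05. Its test was Cuffdiff, which works on reads and was not repeated here. Drd2, the dopamine D2 receptor, ran from 2.73 to 14.4 FPKM in FC (median 6.90) and was at 10.9, 11.3, 14.3 and 4.69 in Immo+FC 1 to 4. Its levels overlapped fully, with a log2 fold change of 0.53, an SE of 0.45 and an adjusted p of 0.756 in limma. The summed striatal markers, of which Drd2 is a member, were highest in FC 4 and Immo+FC 3, the same libraries in which Drd2 was highest. The part of this tissue in Drd2 was not tested. The serotonin receptor Htr2a ran from 2.41 to 6.10 FPKM in FC and was at 4.33, 8.33, 5.01 and 5.27 in Immo+FC (0.48, adjusted p = 0.559 in limma). Grm2, an inhibitory metabotropic glutamate receptor, ran from 10.7 to 16.5 FPKM in FC and was at 11.6, 7.89, 11.7 and 11.5 in Immo+FC (-0.32, adjusted p = 0.502 in limma). Trhr, the receptor of thyrotropin-releasing hormone, ran from 2.51 to 5.30 FPKM in FC and was at 2.15, 1.67, 2.096 and 3.802 in Immo+FC (-0.47, adjusted p = 0.540 in limma).

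Igf2, a growth factor that leptomeninges and choroid plexus express strongly, was at 3.25, 2.81, 3.90, 8.76, 13.8 and 8.04 FPKM in FC 1 to 6 and at 11.5, 14.2, 10.53 and 4.15 in Immo+FC 1 to 4. It was high in FC 4 to 6 and Immo+FC 1 to 3, the libraries with the highest summed choroid plexus markers. The log2 fold change of 0.68 turned to -0.08 with the choroid plexus and leptomeningeal scores as covariates. Igf2 is itself a member of the leptomeningeal score, so that fit cannot tell its change from that of the score. Clock, the partner of BMAL1, ran from 5.78 to 6.80 FPKM in FC and was at 6.68, 9.46, 9.18 and 9.61 in Immo+FC, with HC at 6.19, 6.35, 8.63, 9.44, 8.50 and 8.67 (0.42, adjusted p = 0.137 in limma). Without Immo+FC 1, Clock passed (adjusted p = 0.000619 in limma), and so did Scn3a, Cacna1e, Gabrg3, Gabrb1, Adra1a, Dmxl2, Kmt2c, Ash1l, Hspa4l, Fgd4, Trps1, Soat1, Cirbp and C1ql2. Immo+FC 1 was set apart by low values in some of these same genes, so their passing without it is no separate evidence. In all of these genes but Soat1, Cirbp and C1ql2, HC 1 and 2 were the only HC libraries nearer to FC. Without FC 2, Arc (0.0312 in limma) and Hspa4l (0.0469) passed. Of the other clock genes, Rorb had a log2 fold change of -0.39 (adjusted p = 0.226 in limma).

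**Figure D5:**
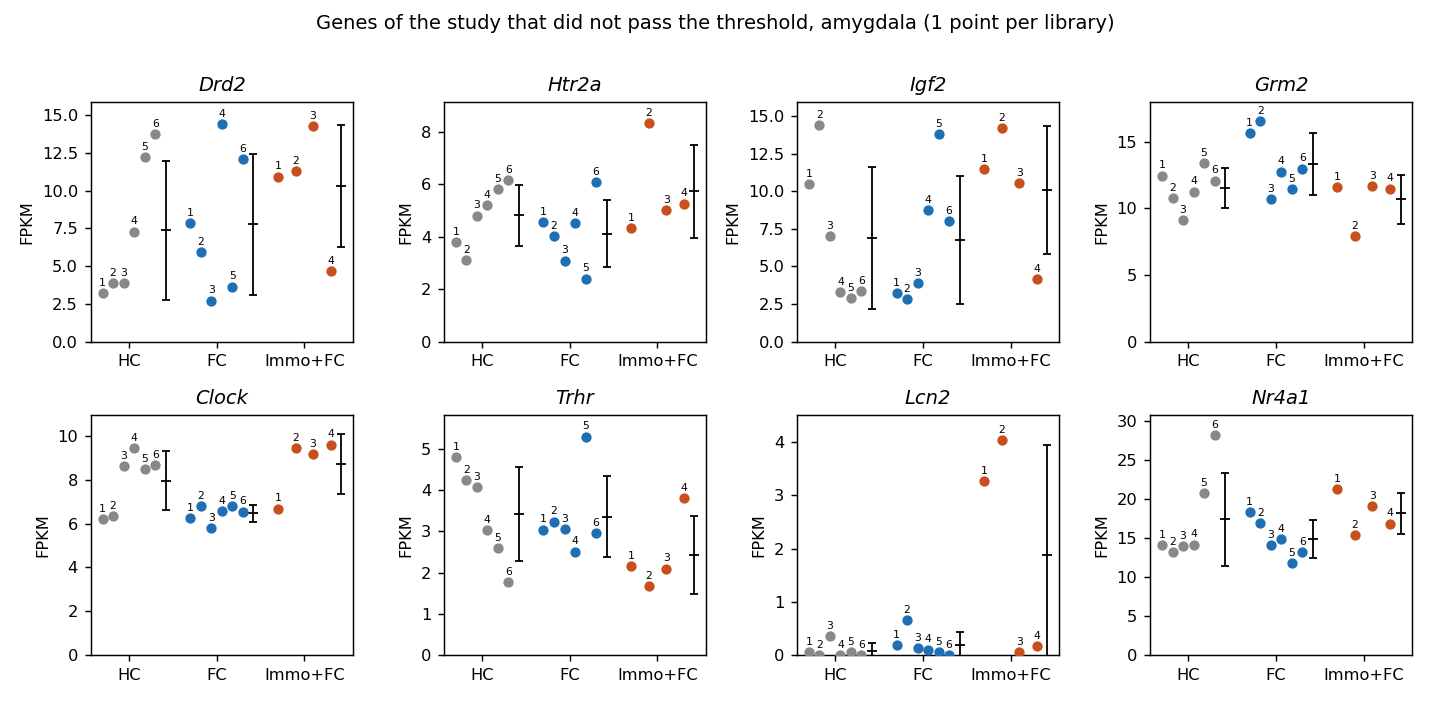
FPKM of 8 genes that the study names and that did not pass the threshold, in each amygdala library (1 point each, replicate number above it) of HC, FC and Immo+FC, with the group mean and SD as a bar that is cut at 0. Drd2, Igf2 and Nr4a1 overlap between FC and Immo+FC, Clock divides HC 1 and 2 from HC 3 to 6, and Lcn2 is raised in Immo+FC 1 and 2 alone, at 3.27 and 4.04.

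Lcn2, the acute phase protein lipocalin 2, was at 0 to 0.661 FPKM in FC (median 0.111), at 3.27, 4.04, 0.0575 and 0.169 in Immo+FC 1 to 4 and at 0 to 0.353 in HC. Immo+FC 1 and 2 stood above all other libraries and Immo+FC 3 and 4 lay within FC, so the log2 fold change of 1.94 had an SE of 0.90 (limma, adjusted p = 0.538) and was -0.16 without Immo+FC 1 and 2. Summed blood cell markers were 16.3, 12.4, 9.05 and 5.64 FPKM in Immo+FC 1 to 4 and 5.43 to 13.1 in FC, and their mean centred log2 level was highest in Immo+FC 1 and 2, at 1.11 and 0.82. Their part in Lcn2 was not tested. Lbp, the lipopolysaccharide-binding protein, ran from 0.0458 to 2.88 FPKM in FC and was at 2.39, 2.51, 1.91 and 0.436 in Immo+FC, and its log2 fold change of 1.29 was -0.03 with the choroid plexus and leptomeningeal scores as covariates. Sdf2l1, an ER protein of quality control, was at 7.20 to 11.4 FPKM in FC, 16.5, 13.6, 9.83 and 9.41 in Immo+FC and 4.44 to 8.25 in HC (0.34, adjusted p = 0.574 in limma). Nr4a1, an orphan nuclear receptor and immediate early gene, ran from 11.8 to 18.4 FPKM in FC and was at 21.3, 15.4, 19.1 and 16.9 in Immo+FC (0.29, adjusted p = 0.494 in limma).

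Of the other named genes, Soat1, which esterifies cholesterol, did not overlap between groups, at 3.31 to 3.88 FPKM in FC and 4.04, 4.89, 4.05 and 4.75 in Immo+FC (log2 fold change 0.31, adjusted p = 0.179 in limma). Fgd4, an exchange factor of CDC42, had 1.99 ± 0.539 FPKM in FC, 3.39 ± 0.862 in Immo+FC and 3.39 ± 1.14 in HC, and Trps1, a GATA-type repressor, had 1.44 ± 0.116, 1.87 ± 0.297 and 1.97 ± 0.370 (SD, n = 6, 4 and 6). The HC means hide the same division as before. Fgd4 was at 1.95 and 2.21 FPKM in HC 1 and 2 and at 3.39 to 4.88 in HC 3 to 6. Trps1 was at 1.53 in both HC 1 and 2 and at 2.00 to 2.38 in HC 3 to 6. Pde7b, a cAMP phosphodiesterase of the striatum, had a log2 fold change of 0.34, and Erdr1 had one of -0.58 with 19.7 to 57.6 FPKM in FC and 17.4 to 35.5 in Immo+FC. Gh, growth hormone, was at 14.3 FPKM in FC 6, at 0.0511 in FC 2 and at 0 in the other 4 FC libraries, and at 0, 0, 0.427 and 0 in Immo+FC 1 to 4. The summed pituitary markers of FC 6, Gh included, were 30.7 FPKM against 1.29 to 1.71 in the other FC libraries, and the value of Gh thus rested on 1 library.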

How the data were processed

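Poly-A selected RNA of amygdala punches was sequenced by the authors in paired reads on a HiSeq. Per the labels and the study's methods, reads were mapped by STAR 2.3 against mm10, FPKM values were made by the authors with Cufflinks 2.1.1, and the deposited table gives 1 FPKM value per gene entry and library, with 272 entries that join overlapping genes. The deposited mapping table gives the count of sequences of each library and its percent mapped to a single place, as the authors made them. FPKM is no count, so no count model was used, and the authors' Cuffdiff test could not be repeated without reads.

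Groups and replicate numbers were taken from the labels. Values were turned into log2(FPKM + 0.1), and fold changes are on this scale, which understates low genes. Entries whose average over the 10 libraries reached 0.5 FPKM were fitted with limma 3.58.1 in R 4.3.3 (moderated variances with a trend, 2-sided), and p-values were adjusted after Benjamini and Hochberg over all 13490. The script was tested on simulated data. Of the tested entries 61 were at 0 in at least 1 of the 10 libraries.

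The text names the 12 highest and up to 12 lowest fold changes past the threshold, among genes that averaged 1 FPKM or more and whose groups did not overlap, genes that the study names, and of each list described the members past the threshold and the next 2 by p. A few genes under this rule are not reported here. Members and lists were chosen with earlier results of these data known. GENCODE vM21 gave positions and transcript lengths on GRCm38 (mm10) for 22347 of 23303 entries. Upstream windows are from RefSeq on GRCm38.p6. Blood libraries were not used.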

Additional observations from a re-analysis of the deposited data

Results flagged for a closer look

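In each group of the 10 libraries, and for each gene named, the highest or lowest library was compared with the rest by Dixon's gap test. Of 174 groups, 20 were past the critical value, where chance gives about 1 in 20. Most were the library Immo+FC 1, which lay below the other 3 of its group in genes with long transcripts. In FPKM it was at 3.41 for Zbed6, 3.69 for Cbl, 1.21 for Rora and 8.38 for Tnr. It was at 5.63 for Kcnq3, 0.611 for Kcnh7, 4.89 for Scn3a and 4.79 for Gabrb1, all of them channel or receptor genes. It was at 5.38 for Dnajb14, 4.20 for Chd9, 9.40 for Ash1l and 6.68 for Clock.

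The other libraries set apart were single values. Grm2 was low in Immo+FC 2, at 7.89 FPKM, as was C1ql2, at 0.693, and C1ql2 was high in FC 5, at 3.35. Trhr was high in FC 5, at 5.30 FPKM, and Lbp was low in Immo+FC 4, at 0.436. The noncoding 4930481A15Rik was low in FC 2, at 1.597 FPKM against 1.81 to 1.87 in the other FC libraries. Gh was at 14.3 FPKM in FC 6 and at 0.427 in Immo+FC 3, where the other libraries were at 0.0511 or less.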

How the results depend on the processing

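The count of 67 genes stayed within 1.5 times under other pseudocounts, other minimum levels, median-ratio scaling, quantile normalization and a fit without the variance trend, with 57 to 84 genes. It was 266 with array weights, in which Immo+FC 1 had the lowest weight (0.278), 220 without Immo+FC 1 and 2, 22 with the choroid plexus and leptomeningeal scores as covariates, 759 with the long transcript score as covariate and 3 with HC in the fit. Leaving out 1 library gave 30 (without Immo+FC 2) to 363 (without Immo+FC 1). Same-numbered FC and Immo+FC libraries had correlations of 0.14, -0.16, -0.25 and -0.23, and those with different numbers ran from -0.25 to 0.22. These values cannot decide whether the numbers pair the pools, which the labels do not state. With the replicate block, which leaves 3 residual degrees of freedom, 32 genes passed. Chosen after seeing the data, a fit of all 16 libraries with the long transcript score called 3 genes, and without Immo+FC 1 it called 1.

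Directions turned as follows, and the cause was not tested. Genes with a transcript of at least 10 kb, Grin2b, Kcnh7 and Cntnap5a among them, are members of the long transcript score. With all 16 libraries and the long transcript score, log2 fold changes were 0.0172 for Ahsa2, -0.0837 for Gabrb1, -0.0517 for Drd2 and -0.0150 for Pde7b. The same fit without Immo+FC 1 gave -0.0275 for Grin2b, -0.0883 for Kcnh7, -0.0715 for Cntnap5a, 0.13 for 2610203C20Rik, -0.0690 for Dusp1, -0.41 for Arc, -0.0701 for Nr4a1, 0.11 for Ahsa2, 0.0358 for Rorb, -0.13 for Gabrb1, -0.97 for Drd2, 0.0784 for Trhr, -0.0138 for Ash1l, 0.0292 for Miat, 0.0163 for Snhg11, -0.0368 for Fgd4 and -0.43 for Pde7b. Grm5 was at -0.0253 with the long transcript score in the 10 libraries. Lcn2 was at -0.16 and Rxrg at 0.0211 without Immo+FC 1 and 2. With the choroid plexus and leptomeningeal scores Igf2, a member of the latter score, was at -0.0829 and Lbp at -0.0329. Gh was at 0.45 with the replicate block, and from -1.29 to 0.48 when 1 library was left out.

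A table of FPKM gives no counting error, so low genes such as Kcnh7 and Lcn2 have no depth interval.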
